A study of Mus musculus with 57 samples.

Results

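The 9 genes described here encode enzymes and transporters on which the choice between making and burning glucose in liver turns: the gluconeogenic enzymes G6pc (ENSMUSG00000078650), Pck1 (ENSMUSG00000027513) and Fbp1 (ENSMUSG00000069805), the glycogen-targeting protein Ppp1r3c (ENSMUSG00000067279), the glucose transporters Slc2a2 (ENSMUSG00000027690) and Slc2a1 (ENSMUSG00000028645), and the glycolytic enzymes Pfkp (ENSMUSG00000021196), Hk2 (ENSMUSG00000000628) and Pkm (ENSMUSG00000032294). They were taken by name, as the rows of the deposited table whose Ensembl identifier maps to these symbols, and make up 9 of 54307 genes. The data are bulk RNA-seq of the livers of 57 male wild-type C57BL/6JJcl mice, 6 weeks old and acclimatised for 1 week, which were fasted for 12 h, given 1 of 7 hepatotoxic compounds or a vehicle, and sampled 24 h later.

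By gavage, 4 mice received alpha-naphthyl isothiocyanate (ANIT), 6 acetaminophen (APAP), 7 4,4'-methylene dianiline (MDA) and 5 thioacetamide (TAA), beside 13 controls given 0.5% methylcellulose (Ctrl). By intraperitoneal injection, 7 mice received carbon tetrachloride (CCl4) and 4 galactosamine (GAL), beside 2 saline controls (CIP). By tail vein injection, 7 mice received the plant lectin concanavalin A (ConA), beside 2 saline controls (CIV). Each compound was compared with the vehicle of its own route and, in a second comparison, with all 17 vehicle mice. Corn oil is named among the vehicles but no corn oil controls are in the samples analysed here, and the labels give no amount of compound per mouse. All groups, controls included, share the fast before dosing; whether the mice ate in the 24 h after it is not given in the sources used here.

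In a fasted liver, hepatocytes rebuild glucose from lactate, glycerol and amino acids. Pck1 makes phosphoenolpyruvate from oxaloacetate, Fbp1 removes a phosphate from fructose 1,6-bisphosphate, and G6pc, in the endoplasmic reticulum, frees glucose from glucose 6-phosphate; the low-affinity transporter Slc2a2 (GLUT2) lets glucose cross the hepatocyte membrane in either direction. In the opposite direction, resting hepatocytes use the liver phosphofructokinase Pfkl and the liver pyruvate kinase Pklr, whereas proliferating cells, most leukocytes and injured or transformed liver rely on the high-affinity transporter Slc2a1 (GLUT1), hexokinase 2 (Hk2), the platelet-type phosphofructokinase Pfkp and the pyruvate kinase Pkm. Pck1 and G6pc are textbook targets of glucagon, glucocorticoid and insulin signalling, and Slc2a1 and Hk2 of hypoxia signalling.

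The 250 bases upstream of the RefSeq start (build GRCm38.p6, shown 5′ to 3′ in the direction of the gene) are printed for G6pc and Pck1, 2 glucose-producing genes of which G6pc fell with ANIT, MDA, APAP and ConA while no change of Pck1 passed, and for Slc2a1 and Hk2, which both rose with APAP, TAA and ConA. Capitals mark any match, on either strand, to 5 motifs: TGACG (core of a cyclic AMP response element), TGANTCA (AP-1), TGTTTAC (forkhead factors), CACGTG (E-box) and ACGTG (core of a hypoxia response element, which lies within every CACGTG).
G6pc (chr11:101367466-101367715, + strand): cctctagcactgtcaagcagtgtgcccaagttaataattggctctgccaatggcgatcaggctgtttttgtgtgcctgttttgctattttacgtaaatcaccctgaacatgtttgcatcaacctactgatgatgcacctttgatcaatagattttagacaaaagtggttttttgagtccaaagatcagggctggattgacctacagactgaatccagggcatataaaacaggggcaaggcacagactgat
Pck1 (chr2:173152823-173153072, + strand): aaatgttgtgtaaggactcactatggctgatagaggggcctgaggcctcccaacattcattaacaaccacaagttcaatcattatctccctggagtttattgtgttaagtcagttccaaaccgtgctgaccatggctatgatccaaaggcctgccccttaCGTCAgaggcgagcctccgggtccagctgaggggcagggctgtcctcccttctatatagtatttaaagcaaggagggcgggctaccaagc
Slc2a1 (chr4:119108495-119108744, + strand): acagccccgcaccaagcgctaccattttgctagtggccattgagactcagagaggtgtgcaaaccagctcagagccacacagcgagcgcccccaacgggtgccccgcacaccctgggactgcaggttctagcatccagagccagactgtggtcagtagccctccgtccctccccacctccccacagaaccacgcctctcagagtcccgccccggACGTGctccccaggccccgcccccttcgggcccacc
Hk2 (chr6:82774455-82774704, - strand): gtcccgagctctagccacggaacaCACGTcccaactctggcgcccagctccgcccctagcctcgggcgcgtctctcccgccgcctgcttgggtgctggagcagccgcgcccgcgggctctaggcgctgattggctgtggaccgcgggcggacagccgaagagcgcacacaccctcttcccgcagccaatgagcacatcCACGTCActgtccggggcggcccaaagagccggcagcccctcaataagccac
The Pck1 window holds 1 TGACG match, on the reverse strand at position -90 from the start, and none of the other motifs. The Slc2a1 window holds 1 ACGTG match at position -36, and the Hk2 window holds 2 ACGTG matches and 1 TGACG match, at position -50, that shares letters with one of them. No match to any of the 5 was found in the G6pc window. All 9 genes had a promoter in the table, Pkm more than 1. A gene was counted if any of its windows matched, whereas the percentages are per promoter. TGACG occurred in 2 genes (17.8% of 32851 promoters) and CACGTG in 1, Ppp1r3c (6.02%). ACGTG occurred in 4 (16.6%): Slc2a1, Hk2, Ppp1r3c, with 3 matches, and Pkm, in 1 of its windows. TGANTCA and TGTTTAC occurred in 0 (6.75% and 3.17%). These matches describe the letters only.

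The deposited values summed to between 13826343 and 35075809 estimated counts per mouse (median 21532116), and mitochondrial genes took 5.11% to 39.3% of them. That share was highest in ConA, at 14.6% to 39.3% (median 24.4%), against 6.79% and 25.4% in CIV and 7.48% to 21.8% in Ctrl (median 14.0%); its part in the ConA differences was not tested. Levels are given as CPM, the count of a gene relative to the scaled total of its mouse. The deposited values fall with transcript length. CPM values of different genes are compared here on the reading that they are per length, which the sources used here do not state. Summed markers of hepatocytes lay between 49525 and 119163 CPM in Ctrl, and at 20044 to 29864 in CCl4 and 25889 to 33870 in GAL, below the 51936 to 59560 of CIP. Summed neutrophil markers (6 genes) were 2.17 to 61.1 CPM in Ctrl, 160 to 850 in TAA and 126 to 287 in ConA. Summed erythroid markers (4 genes) were 79.9 to 287 CPM in Ctrl, 2131 to 3931 in TAA and 980 to 5243 in ConA, and Kupffer cell markers (5 genes) were 24.2 to 49.5 CPM in ConA against 267 to 276 in CIV. In whole liver, fewer cells of a type and less RNA per cell cannot be told apart.

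Against the vehicle of the same route, 38 of the 63 tests (9 genes, 7 compounds) passed an adjusted p of 0.05 in edgeR's quasi-likelihood test: 23 lower and 15 higher. All 9 genes changed with TAA (4 higher and 5 lower; 50.3% of all genes tested passed), 8 with APAP (4 and 4; 31.8% of all genes) and 7 with ConA (4 and 3; 34.2%). With GAL 1 gene rose and 4 fell (28.7% of all genes passed), with CCl4 1 rose and 3 fell (33.6%), with MDA 1 rose and 2 fell (33.7%), and with ANIT 2 fell (28.1%). In none of the tests that passed did G6pc, Pck1, Fbp1, Ppp1r3c or Slc2a2 rise, or Slc2a1, Pfkp, Hk2 or Pkm fall. The 9 genes, like the lists of other genes below, were chosen with earlier results of these data known. Their counts and directions are therefore not independent of that choice. Among mice numbered 1 to 4 alone, with 3 APAP and 4 Ctrl mice, 2 of the 9 passed with APAP; the calls lost were G6pc (-1.68, adjusted p = 0.117), Slc2a2 (-1.78, 0.0574), Slc2a1 (2.18, 0.0726), Ppp1r3c, Pfkp (0.85, 0.383) and Hk2 (1.47, 0.216).

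**Figure D1:**
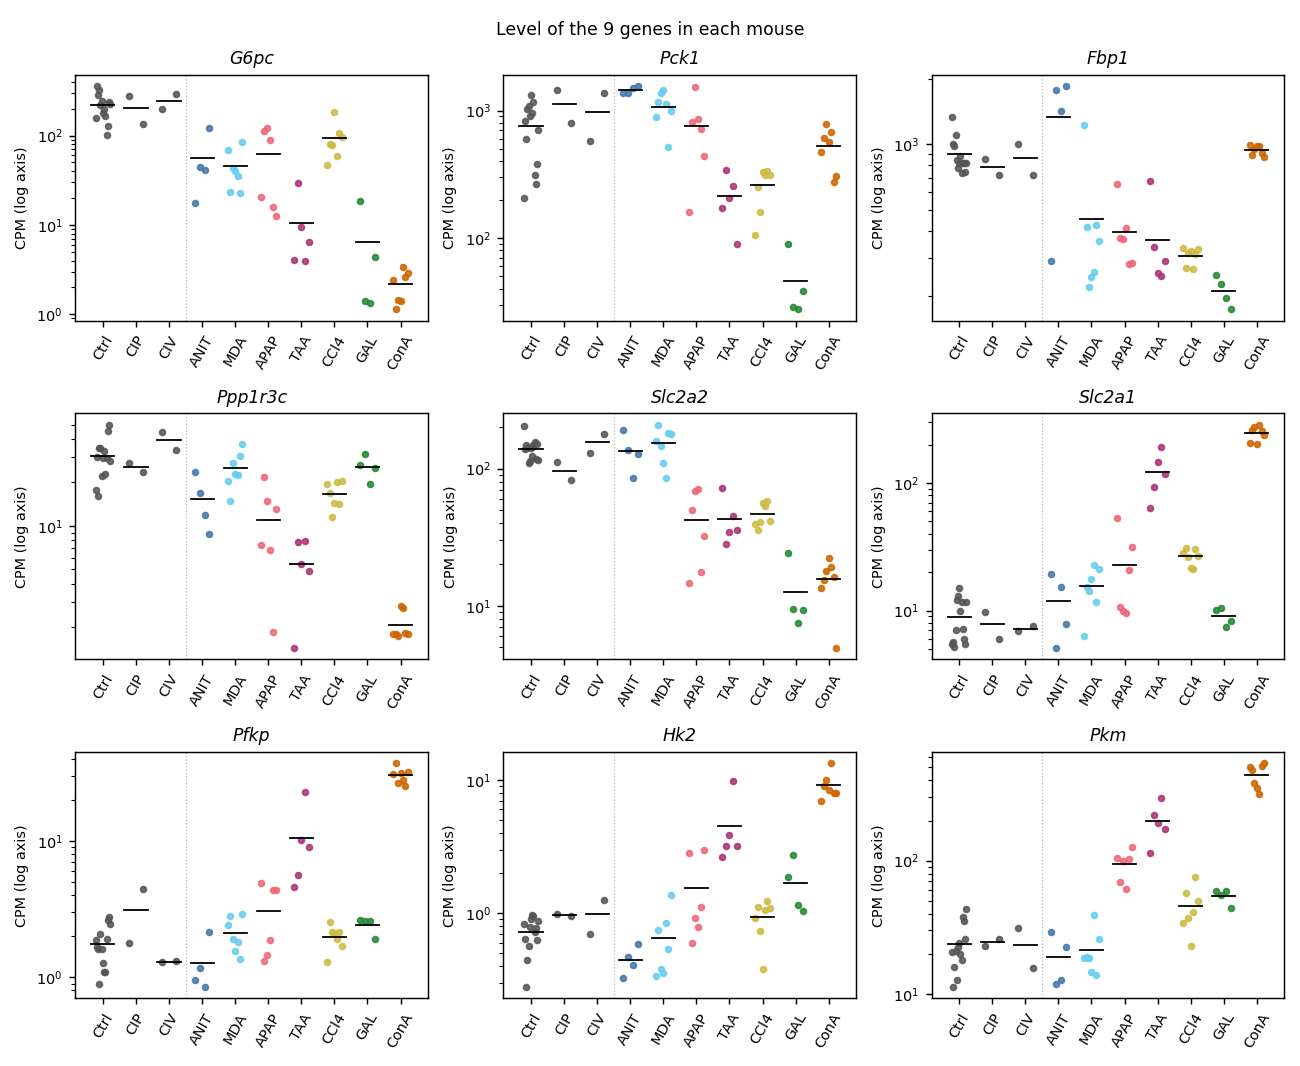
Level of each of the 9 genes in each of the 57 mice (CPM, log axis), by group; each point is 1 mouse and each bar the group mean, with the 3 vehicle groups left of the dotted line. G6pc has a mean of 243 CPM in CIV, the route vehicle of ConA, and 2.20 in ConA, and Slc2a1 7.21 in CIV and 245 in ConA.

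G6pc, the enzyme of the last step of glucose release, fell with 6 of the 7 compounds. In Ctrl its level ran from 102 to 361 CPM with a median of 221, in CIP it was 275 and 136, and in CIV 197 and 289. The 7 ConA mice lay between 1.14 and 3.41 CPM (median 2.45), a log2 fold change of -6.77 ± 0.36 (SE; 109-fold lower, adjusted p = 3.03e-06, edgeR quasi-likelihood test, 7 against 2 mice). No ConA mouse came near any vehicle mouse, and the ConA mean was the lowest of the 10 groups.

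The TAA mice held 4.07, 29.1, 9.41, 3.99 and 6.39 CPM of G6pc (log2 fold change -4.31 ± 0.49, 19.9-fold lower, adjusted p = 6.09e-07). All 5 lay under the lowest Ctrl mouse, with mouse 3 well above the other 4. The GAL mice held 18.4, 1.41, 1.33 and 4.38 CPM (log2 fold change -5.11 ± 1.18, adjusted p = 0.0274), and mouse 2 stood above the other 3. The GAL call was lost without GAL mouse 7 (adjusted p = 0.0504), GAL mouse 8 (0.072), CIP mouse 7 (0.0972) or CIP mouse 8 (0.0729), with estimates of -5.55 to -4.48. With all mice kept it was also lost without the filter on low genes (-5.08, 0.0721) and with the number range as a covariate (-6.22, 0.0581); against all 17 vehicle mice the adjusted p was 3.93e-07.

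With the other gavage compounds the estimated falls of G6pc were smaller. MDA mice ran from 22.9 to 83.9 CPM (median 39.8; log2 fold change -2.24 ± 0.29, adjusted p = 5.09e-06), entirely below Ctrl. ANIT mice held 17.7, 44.1, 40.7 and 121 CPM (-1.97 ± 0.41, adjusted p = 0.00187), of which only mouse 4 reached the Ctrl range. APAP mice 1, 2, 4, 6, 8 and 11 held 20.4, 113, 121, 89.8, 15.8 and 12.6 CPM (-1.80 ± 0.44, adjusted p = 0.0043), so that 2 of the 6 reached the Ctrl range.

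CCl4 mice ran from 47.2 to 184 CPM of G6pc (median 80.4), and mouse 8, the highest, overlapped the saline mice. The difference from CIP was -1.16 ± 0.42 on the log2 scale and missed the threshold (adjusted p = 0.0608); it passed without CCl4 mouse 8 (-1.41, adjusted p = 0.0072), in DESeq2 (-1.21, 0.0133), among genes of at least 5 CPM (-1.25, 0.0361) and against all vehicles (-1.27 ± 0.24, adjusted p = 7.94e-05). Ranked by mean, CCl4, APAP, ANIT and MDA followed one another at 93.1, 62.0, 55.8 and 45.6 CPM without a difference between neighbours (adjusted p of 0.455 to 0.936 in the fit of all 57 mice). TAA stood below MDA (adjusted p = 0.00471) and ConA below GAL (0.0316), while TAA and GAL did not differ beyond their spread (0.395).

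Pck1, which feeds the pathway with phosphoenolpyruvate, moved with fewer compounds. Vehicle levels varied widely, from 206 to 1339 CPM in Ctrl (median 826), 1452 and 807 in CIP and 575 and 1381 in CIV. By number, Ctrl mice 1 to 4 held 206 to 1026 CPM, mice 7 to 12 902 to 1339, and mice 15 to 18 268 to 707. Both saline groups are numbered 7 and 8. GAL mice held 89.9, 28.4, 27.5 and 38.1 CPM (log2 fold change -4.71 ± 0.53, 26.1-fold lower, adjusted p = 0.00253), the lowest of all groups and apart from every vehicle mouse. CCl4 mice ran from 106 to 336 CPM (median 313, log2 fold change -2.14 ± 0.37, adjusted p = 0.00191), below both saline mice. They overlapped Ctrl mice 1, 15 and 16. Against all vehicles the difference was -1.71 ± 0.35 (adjusted p = 0.000203, edgeR).

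TAA mice held 172, 340, 205, 256 and 89.2 CPM of Pck1 (-1.78 ± 0.43, adjusted p = 0.00184), which overlapped the lower Ctrl mice. Among mice numbered 1 to 4 alone this difference did not pass (-1.34, adjusted p = 0.191), nor did it in edgeR with the replicate number as a block (-1.57, 0.1). The ConA mice, whose G6pc was the lowest of all, kept 277 to 783 CPM of Pck1 (median 572): the difference from CIV was -0.88 ± 0.40 with an adjusted p of 0.113. Scaling by library totals turned it into a call (-1.46, adjusted p = 0.00601; -1.24, 0.00344 against all vehicles).

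Pck1 was at 159 to 1545 CPM in APAP (0.02 ± 0.40, adjusted p = 0.979) and at 523 to 1450 in MDA (0.52 ± 0.31, adjusted p = 0.211). ANIT mice held 1369, 1374, 1497 and 1570 CPM, a narrow band just above the highest Ctrl mouse. The difference was 0.94 ± 0.38 and did not pass (adjusted p = 0.0722), passed in DESeq2 (0.95, adjusted p = 0.0393), and overlapped 2 of the saline mice. ANIT mice thus combined the highest mean Pck1 of the 10 groups with a G6pc level that had fallen.

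**Figure D2:**
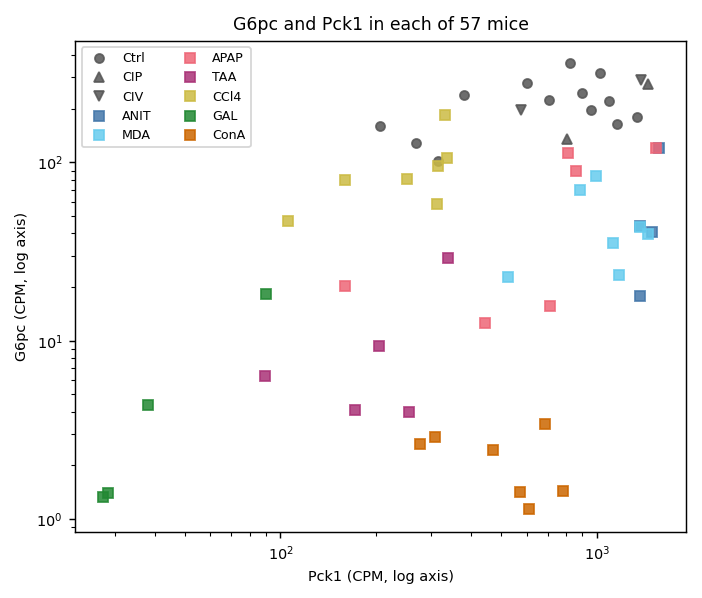
G6pc against Pck1 in each of 57 mice (CPM, both axes log); points are mice, circles and triangles the 3 vehicle groups and squares the 7 compounds. GAL mice lie low on both axes (Pck1 27.5 to 89.9 CPM), whereas ConA mice lie at 277 to 783 CPM of Pck1 with G6pc at 1.14 to 3.41 CPM.

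Fbp1, the fructose bisphosphatase between these steps, fell with 5 compounds and within a narrower range. Ctrl mice ran from 736 to 1334 CPM (median 825), CIP mice held 853 and 723, and CIV mice 999 and 725. GAL mice held 251, 227, 196 and 174 CPM (log2 fold change -1.97 ± 0.18, adjusted p = 0.00169) and CCl4 mice 266 to 334 (median 316; -1.38 ± 0.11, adjusted p = 1.43e-05). Neither group overlapped CIP.

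With the gavage compounds, Fbp1 fell in TAA (-1.26 ± 0.22, adjusted p = 7.21e-05), APAP (-1.15 ± 0.18, adjusted p = 7.95e-05) and MDA (-0.98 ± 0.26, adjusted p = 0.00593). The mouse numbered 1 was the highest in each of these groups: 680 CPM in TAA against 247 to 335 in the others, 655 in APAP against 282 to 410, and 1233 in MDA against 221 to 427. Ctrl mice numbered 1 to 4 also held more Fbp1 (983 to 1334 CPM) than those numbered above 4 (736 to 880). Among mice numbered 1 to 4 alone, with 4 MDA and 2 TAA mice, the estimates were -1.06 for MDA (adjusted p = 0.225) and -1.08 for TAA (0.0529).

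ANIT mice held 291, 1771, 1419 and 1863 CPM of Fbp1, so that 3 were above and 1 below the Ctrl range (0.56 ± 0.27, adjusted p = 0.139). Without ANIT mouse 1 the difference passed (0.89, adjusted p = 0.000243). ConA mice stayed within 875 to 993 CPM (median 950), inside the range of the vehicle mice; the difference from CIV was 0.14 ± 0.20 (adjusted p = 0.63). No change of Fbp1 was detected in the group in which G6pc was lowest, and against all vehicles the direction turned with the setting: 0.18 (adjusted p = 0.107) as reported, a rise of 0.20 (0.0481) among genes of at least 5 CPM, and -0.44 (0.00102) with library totals.

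Ppp1r3c, which tethers protein phosphatase 1 to glycogen and favours its synthesis, fell with 4 compounds. Ctrl mice ran from 16.0 to 50.2 CPM (median 29.6), CIP mice held 27.1 and 23.6, and CIV mice 44.8 and 33.6. ConA mice lay between 1.74 and 2.78 CPM (median 1.79; log2 fold change -4.25 ± 0.24, 19.0-fold lower, adjusted p = 3.16e-06), apart from all vehicle mice. TAA mice held 1.43, 7.73, 5.47, 7.88 and 4.87 CPM (-2.43 ± 0.33, adjusted p = 4.96e-06), also apart from Ctrl; among mice numbered 1 to 4 alone, with 2 TAA mice, the estimate was -2.36 (adjusted p = 0.0615).

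APAP mice ran from 1.84 to 21.9 CPM of Ppp1r3c (median 10.3; -1.44 ± 0.35, adjusted p = 0.00412) and ANIT mice held 23.6, 16.8, 11.8 and 8.85 (-0.999 ± 0.28, adjusted p = 0.0138); both overlapped Ctrl. The APAP estimate was -0.67 (adjusted p = 0.344) among mice numbered 1 to 4 alone. The ANIT call was lost without mouse 3 (adjusted p = 0.0645) or mouse 4 (0.0601), against Ctrl mice numbered 1 to 4 alone (-0.71, 0.214) and with the number range as a covariate (-0.69, 0.144). CCl4 mice (11.5 to 20.5 CPM) lay below both CIP mice without passing (-0.61 ± 0.23, adjusted p = 0.0617; -0.67 and 0.0486 without CCl4 mouse 10, -0.67 and 0.0179 in DESeq2, and -0.70 and 0.026 among genes of at least 5 CPM). GAL mice held 26.3, 31.4, 19.3 and 25.3 CPM (-0.06 ± 0.22, adjusted p = 0.854), and MDA mice 15.0 to 36.8 (-0.26 ± 0.20, adjusted p = 0.351), levels that overlapped their vehicles. GAL thus had the lowest mean Pck1 of the groups beside a Ppp1r3c level that was not shown to move.

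Slc2a2, the transporter of resting hepatocytes, fell with 5 compounds, and no mouse of those 5 groups reached its vehicle. It ran from 109 to 205 CPM in Ctrl (median 141), was 111 and 82.4 in CIP and 131 and 180 in CIV. ConA mice held 4.90 to 22.3 CPM (median 16.2; log2 fold change -3.31 ± 0.37, adjusted p = 9.77e-05) and GAL mice 24.2, 9.50, 7.46 and 9.25 (-3.03 ± 0.46, adjusted p = 0.00566). These were the lowest groups and did not differ from each other beyond their spread (adjusted p = 0.438).

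Slc2a2 was at 14.6 to 70.6 CPM in APAP (median 41.4; -1.70 ± 0.27, adjusted p = 8.7e-05), 28.2 to 72.3 in TAA (-1.64 ± 0.20, adjusted p = 9.3e-07) and 35.8 to 58.1 in CCl4 (-1.07 ± 0.19, adjusted p = 0.00177). The CCl4 call was lost with library totals (-0.64, adjusted p = 0.0539). ANIT (85.7 to 190 CPM; -0.05 ± 0.17, adjusted p = 0.842) and MDA (85.1 to 209 CPM; 0.14 ± 0.14, adjusted p = 0.474) overlapped Ctrl.

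Slc2a1, the transporter of proliferating and many non-parenchymal cells, rose with 5 compounds. Ctrl mice ran from 5.21 to 14.9 CPM (median 7.13), CIP mice held 9.80 and 5.98, and CIV mice 6.90 and 7.52. ConA mice lay between 201 and 287 CPM (median 257; log2 fold change 5.10 ± 0.30, 34.3-fold higher, adjusted p = 5.26e-06) and TAA mice held 63.1, 93.6, 147, 193 and 117 (3.82 ± 0.26, 14.1-fold higher, adjusted p = 4.45e-10). Every mouse of both groups stood above every vehicle mouse, and ConA stood above TAA (adjusted p = 0.0233).

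CCl4 mice held 21.1 to 31.1 CPM of Slc2a1 (median 27.0; 1.73 ± 0.23, adjusted p = 0.000332), above both CIP mice. APAP mice 1, 2, 4, 6, 8 and 11 held 52.9, 10.6, 9.91, 9.55, 20.8 and 31.6 CPM (1.40 ± 0.34, adjusted p = 0.0036), of which 3 lay inside the Ctrl range. MDA mice ran from 6.32 to 22.9 (median 15.4; 0.82 ± 0.24, adjusted p = 0.0123; 0.0539 with library totals). GAL mice held 10.1, 10.5, 7.46 and 8.28 CPM (0.12 ± 0.27, adjusted p = 0.758), and ANIT mice 19.2, 5.07, 15.2 and 7.89 (0.41 ± 0.33, adjusted p = 0.388). Under GAL, whose Slc2a2 was the lowest of all groups, no rise of Slc2a1 was detected against CIP. Against all vehicles it did not pass as reported (0.02, adjusted p = 0.948) but did with library totals (0.84, adjusted p = 0.0118) and among mice numbered 1 to 4 alone (0.80, adjusted p = 0.0304).

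The 3 glycolytic enzymes rose together with ConA and with TAA. Pkm, which catalyses the last step of glycolysis, was at 11.2 to 43.1 CPM in Ctrl (median 21.1), 314 to 536 in ConA (median 481; log2 fold change 4.24 ± 0.42, adjusted p = 5.09e-05) and 114, 218, 190, 295 and 173 in TAA (3.09 ± 0.25, adjusted p = 6.73e-09). Neither group overlapped its vehicle. Pkm also rose with APAP, at 61.5 to 126 CPM (median 101; 2.01 ± 0.23, adjusted p = 3.42e-06), where all 6 mice stood above Ctrl.

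With GAL, Pkm was 59.2, 54.9, 58.9 and 44.1 CPM against 23.0 and 26.0 in CIP (1.08 ± 0.20, adjusted p = 0.00987), the single rise among the 9 genes under that compound; the call was lost without CIP mouse 7 (adjusted p = 0.0655) or CIP mouse 8 (0.0593). CCl4 mice ran from 22.9 to 75.3 CPM (0.87 ± 0.38, adjusted p = 0.103) and passed without CCl4 mouse 8 (0.99, adjusted p = 0.0306), with library totals (1.32, 0.0245) and against all vehicles (0.89 ± 0.22, adjusted p = 0.00112). MDA (-0.14 ± 0.25, adjusted p = 0.701) and ANIT (-0.33 ± 0.32, adjusted p = 0.481) did not pass.

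Pfkp, an isoform of the enzyme that commits sugar to glycolysis, was at 0.893 to 2.79 CPM in Ctrl (median 1.66). It reached 25.5 to 37.2 CPM in ConA (median 30.9; log2 fold change 4.53 ± 0.28, adjusted p = 7.42e-06, against 1.29 and 1.32 in CIV) and 4.58, 5.62, 10.1, 23.0 and 9.04 in TAA (2.59 ± 0.29, adjusted p = 4.29e-07), with no overlap. APAP mice 1, 2, 4, 6, 8 and 11 held 4.97, 1.32, 1.46, 1.88, 4.41 and 4.36 CPM (0.82 ± 0.30, adjusted p = 0.0402). APAP mice 1, 8 and 11, which held the most Pfkp, were also the 3 with the least G6pc and the most Slc2a1. The APAP call was lost without mouse 1 (adjusted p = 0.141), 8 (0.116) or 11 (0.111), without the filter on low genes (0.79, 0.0698), among mice numbered above 4 alone (0.92, 0.0697) and against all vehicles (0.74, 0.0637). ANIT (-0.48 ± 0.31, adjusted p = 0.272), MDA (0.25 ± 0.23, 0.416), GAL (-0.41 ± 0.40, 0.467) and CCl4 (-0.66 ± 0.34, 0.171) did not pass. The CCl4 difference passed without CIP mouse 7 (-1.19, adjusted p = 0.0309), where the single control left is the vehicle mouse with the most Pfkp (4.48 CPM) and the spread comes from the CCl4 mice; against all vehicles it was 0.04 (adjusted p = 0.894), and 0.59 (0.0441), a rise, with library totals. GAL likewise went from 0.30 (adjusted p = 0.426) against all vehicles to 1.14 (0.0021) with library totals.

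Hk2, the high-affinity hexokinase, had the lowest levels of the 9 genes, 0.277 to 0.965 CPM in Ctrl (median 0.768). ConA mice held 6.92 to 13.3 CPM (median 8.47; log2 fold change 3.22 ± 0.39, adjusted p = 0.000161, against 0.693 and 1.26 in CIV) and TAA mice 2.63, 3.19, 3.85, 9.80 and 3.17 (2.66 ± 0.26, adjusted p = 7.72e-08). Both groups were apart from their vehicle. APAP mice ran from 0.595 to 3.00 CPM (median 1.01; 1.11 ± 0.32, adjusted p = 0.0121), a call lost without APAP mouse 1 (adjusted p = 0.0551) or 11 (0.071). GAL mice held 1.87, 2.71, 1.15 and 1.04 CPM, all above the CIP mice at 0.978 and 0.957, but the difference did not pass (0.72 ± 0.49, adjusted p = 0.3). It passed against all vehicles (1.03 ± 0.27, adjusted p = 0.00263). That call was lost among mice numbered above 4 alone, with 2 GAL mice (0.34, adjusted p = 0.4). It was also lost in edgeR with the replicate number as a block (0.95, 0.0914). ANIT (-0.65 ± 0.31, 0.131), MDA (-0.15 ± 0.29, 0.73) and CCl4 (-0.06 ± 0.44, 0.933) did not pass. Against all vehicles with library totals, Hk2 passed as a rise in CCl4 (0.74, adjusted p = 0.0109) and as a fall in ANIT (-1.01, adjusted p = 0.0365).

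Markers of other cells also changed, given here against the vehicle of the same route and, where the count differs, against all 17 vehicle mice; no test compared the groups in these counts. Of 3 tested erythroid markers, 2 rose in TAA, ConA and APAP each, and 1 fell in TAA and APAP (in ConA too against all vehicles). In GAL, CCl4, MDA and ANIT the same single marker, Alas2, fell, and the globins Hba-a1 and Hbb-bs lay between -0.37 and 0.39 on the log2 scale without passing (adjusted p of 0.386 or more). Of 5 cholangiocyte markers, 2 rose in TAA, ConA and APAP each, and 1 (Sox9) in MDA and ANIT each, where 2 fell in ANIT; in GAL and CCl4 their adjusted p against the 2 CIP mice ran from 0.0548 to 0.981. Against all vehicles 4 cholangiocyte markers rose in ConA, 3 in TAA, 2 in APAP, 2 in GAL and 1 in each of CCl4, MDA and ANIT, and 1 fell in APAP. Of 5 endothelial markers, 3 fell in CCl4 (4 against all vehicles), and 1 rose and 2 fell in ANIT and in MDA. In TAA 2 rose and 3 fell, in ConA 2 and 2, in APAP 2 and 1, and 0 passed in GAL. Against all vehicles 2 fell in TAA and in APAP, 3 fell in ConA, and 2 rose and 1 fell in GAL. Of 5 stellate or fibroblast markers, 3 rose in APAP, 2 in TAA and 1 in CCl4, while 1 fell in TAA and in CCl4, 3 in ConA, 4 in MDA and 4 in ANIT; against all vehicles 2 rose in APAP, 1 in GAL and 1 in ConA, where 4 fell, and 3 fell in ANIT. Of 6 neutrophil markers, 6 rose in TAA, 3 of 4 tested in ConA and 3 of 4 in APAP. In GAL 4 of 5 tested rose, in CCl4 3 of 6, in MDA 2 of 4 and in ANIT 1 of 4. Against all vehicles the neutrophil count was 1 of 5 in GAL, 4 of 4 in APAP, 3 of 4 in CCl4 and 3 of 4 in MDA, and 1 fell in ConA. Of 7 monocyte or macrophage markers, 5 rose in TAA, 5 in APAP, 6 in GAL, 3 in CCl4 and 1 in MDA, with 1 higher and 1 lower of 6 tested in ConA and 2 lower of 6 in ANIT; against all vehicles 7 rose in GAL, 4 in CCl4, 4 in TAA, 2 in ConA and 1 in ANIT. Of 5 Kupffer cell markers, 5 fell in ConA and 2 rose in GAL (3 against all vehicles). In CCl4 1 rose and 2 fell, and in ANIT, APAP, MDA and TAA 1 rose and 1 fell each. Against all vehicles 2 fell in MDA and in TAA. Of tested lymphocyte markers, 2 of 4 fell in ANIT, 2 of 3 fell in MDA, and 1 of 4 rose and 1 fell in TAA. Against all vehicles 3 fell in MDA and 1 rose in GAL. The part of these cells in the rise of Slc2a1, Pfkp, Hk2 and Pkm was not tested. Of 6 hepatocyte markers, 6 fell in GAL and 4 in CCl4, while 1 rose and 1 fell in ConA and in ANIT, 2 rose and 1 fell in TAA and in APAP, and 2 rose and 2 fell in MDA. Against all vehicles 5 fell in CCl4, and 3 rose and 2 fell in ConA; their part in the falls of G6pc, Pck1, Fbp1 and Slc2a2 was not tested.

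**Figure D3:**
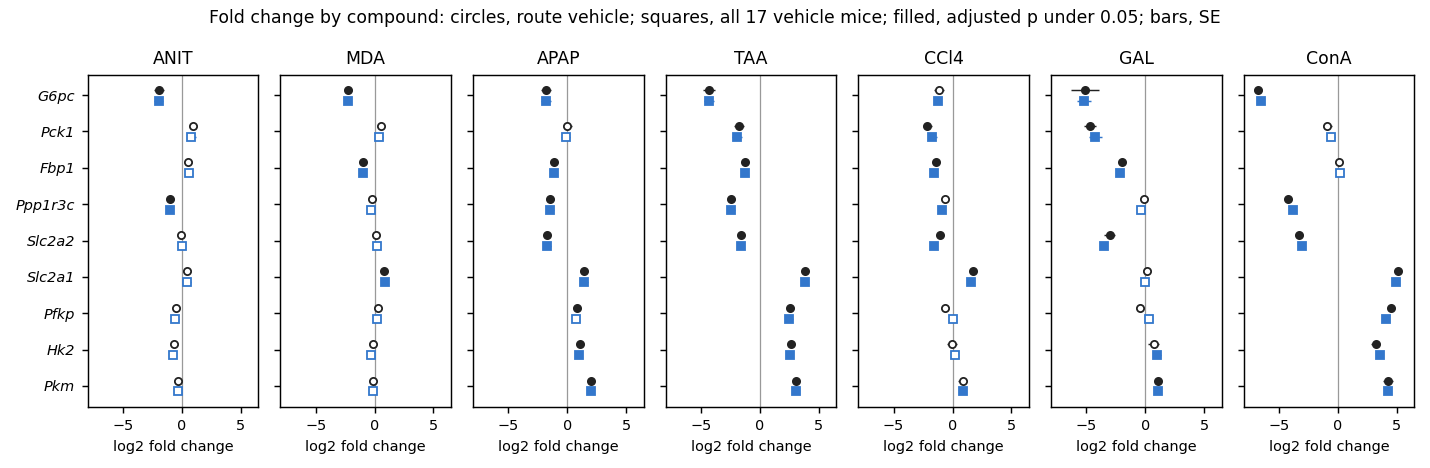
Log2 fold change of the 9 genes under each compound, against the route vehicle (circles) and all 17 vehicle mice (squares); filled symbols passed an adjusted p of 0.05 and bars are the SE, often narrower than the symbol. G6pc lies left of 0 under all 7 compounds, from -6.77 (ConA) to -1.16 (CCl4), and the 4 lower genes lie far to the right under TAA and ConA.

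Against all 17 vehicle mice, 41 of the 63 tests passed, 25 lower and 16 higher. G6pc fell with all 7 compounds in this comparison. The counts were 2 for ANIT (27.9% of all genes passed), 7 for APAP (33.3%), 3 for MDA (34.1%), 9 for TAA (49.5%), 7 for CCl4 (53.3%), 6 for GAL (52.4%) and 7 for ConA (68% of all genes). CCl4 gained G6pc, Ppp1r3c (-0.92 ± 0.19, adjusted p = 0.000163; -0.40 and 0.11 with library totals) and Pkm, GAL gained Hk2, and APAP lost Pfkp (0.74 ± 0.30, adjusted p = 0.0637). This comparison shares the treated mice, and the 13 Ctrl mice or the 2 saline mice, with the former one.

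The share of 1 gene within 3 pairs of related genes was computed in each mouse. This share needs no scaling between mice, but its size rests on the reading of the values as per length. Slc2a1 made up 6.17% ± 2.55 (SD, n = 17) of the summed CPM of Slc2a1 and Slc2a2 in the vehicle mice and 94.0% ± 2.30 (n = 7) in ConA, where the lowest mouse was at 90.0%. It made up 72.4% ± 14.6 in TAA (n = 5), 44.8% ± 10.4 in GAL (n = 4), 36.8% ± 6.97 in CCl4 (n = 7) and 37.3% ± 27.4 in APAP (n = 6), whose mice ran from 11.9% to 78.3%. The share was 8.41% ± 5.00 in ANIT (n = 4) and 10.2% ± 5.84 in MDA (n = 7). Slc2a2 was still the larger part of the pair in every ANIT, MDA and CCl4 mouse (Slc2a1 at most 15.1%, 21.2% and 46.5%), and on average in GAL and APAP.

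Pkm made up 11.9% ± 4.58 of Pkm and Pklr in the vehicle mice (SD, n = 17). Its share was 93.9% ± 1.84 in ConA, 88.9% ± 6.03 in TAA, 78.0% ± 9.34 in GAL and 72.4% ± 11.7 in APAP, and no mouse of these groups was under 54.4%, while no vehicle mouse was above 20.5%. The CCl4 mean was 43.7% ± 13.7, with every mouse at 22.4% or more. MDA mice spread from 14.1% to 69.9% (41.1% ± 16.8), reaching into the ranges of the vehicle and of the APAP mice. ANIT mice 1 to 4 were at 57.7%, 12.4%, 13.8% and 19.1% (25.7% ± 21.5), so that 3 of the 4 lay in the vehicle range and the mean was 15.1% without mouse 1. In MDA this went with Pkm at 21.4 CPM, close to the 23.8 of the vehicle mice, and Pklr at 37.4 CPM against 199.

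Pfkp made up 7.32% ± 3.28 of Pfkp and Pfkl in the vehicle mice, 23.3% ± 2.91 in ConA and 24.6% ± 4.86 in GAL. The CIP mice, the vehicle of GAL, were at 6.46% and 17.1%, the second just under the lowest GAL mouse (17.7%). The share was 16.9% ± 5.29 in TAA, 14.2% ± 14.1 in APAP (8.65% without its highest mouse), 10.9% ± 3.35 in MDA, 8.74% ± 2.43 in CCl4 and 7.66% ± 3.49 in ANIT. In ConA both genes were high (30.3 CPM of Pfkp and 101 of Pfkl), and in GAL Pfkl was at 7.93 CPM and Pfkp at 2.43. No test was made of these shares.

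**Figure D4:**
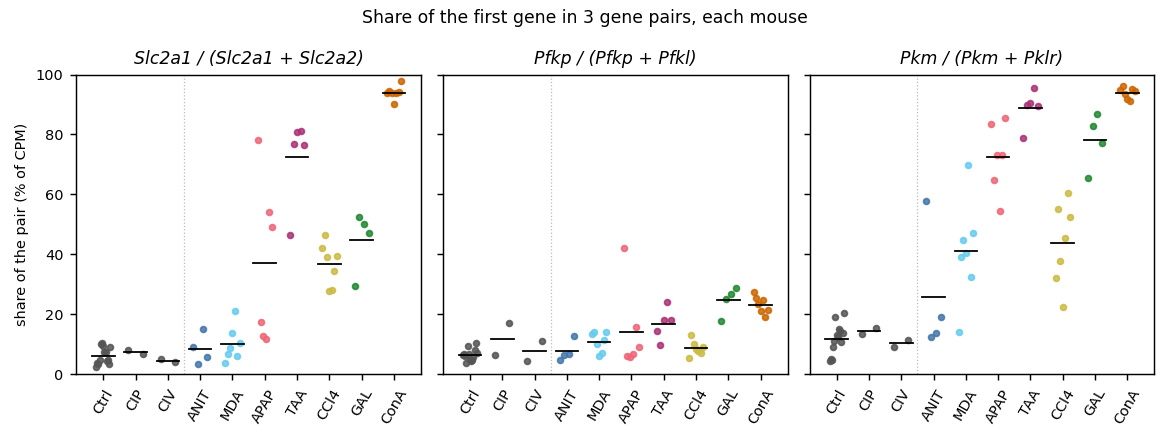
Share of the first gene in the summed CPM of 3 gene pairs, in percent, in each mouse; points are mice and bars group means. Slc2a1 and Pkm pass 90% of their pair in all ConA mice, while Pfkp reaches at most 42.0% of its pair in any mouse.

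The compounds were compared directly in a fit of all 57 mice. Of 189 differences (9 genes, 21 pairs of compounds), 130 passed an adjusted p of 0.05, against 28.7% over all genes and pairs. This count, too, is not independent of how the 9 genes were chosen. Pkm differed in 19 of the 21 pairs, Pck1 and Slc2a2 in 16 each, Hk2 in 15, G6pc and Slc2a1 in 14 each, and Pfkp, Ppp1r3c and Fbp1 in 12 each. All 9 genes differed between ConA and MDA (46.3% of all genes passed), ConA and CCl4 (49.2%), ConA and TAA (27.1%), and TAA and ANIT (23.6%). Of the 9 genes, 8 differed between ANIT and ConA (40.4% of all genes), APAP and ConA (39.4%), and MDA and TAA (26%), and 7 between APAP and GAL (30.3%) and TAA and GAL (26.1%). In turn, 6 differed between ANIT and GAL (35.7%), MDA and GAL (38.2%), APAP and TAA (9.59%), and TAA and CCl4 (26%), and 5 between ANIT and APAP (16.9%) and ANIT and CCl4 (26%). The smaller counts were 4 between APAP and MDA (16.3%) and CCl4 and GAL (28.3%), 3 between MDA and CCl4 (30.4%), and 2 between APAP and CCl4 (22.3%).

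ConA and TAA, with which the same 4 genes rose, still differed in all 9. Slc2a1 was lower in TAA by -1.001 ± 0.34 on the log2 scale (adjusted p = 0.0233), Pkm by -1.15 ± 0.29 (0.00218) and Pck1 by -1.32 ± 0.42 (0.0149), while G6pc was higher in TAA by 2.28 ± 0.56 (0.00156). ANIT and MDA differed in 1 gene, Fbp1, which was higher in ANIT by 1.54 ± 0.31 (adjusted p = 0.0112); 0.24% of all genes passed between them. Their G6pc differed by 0.27 ± 0.57 and their Pck1 by 0.42 ± 0.43, intervals that leave room for differences of either sign. ConA and GAL differed in 8 genes (44% of all genes passed): Pck1 was lower in GAL by -3.54 ± 0.52 (adjusted p = 1.65e-07) and Slc2a1 by -4.76 ± 0.46 (3.5e-12), and G6pc was higher in GAL by 1.51 ± 0.59 (0.0316). The pairs across routes also differ in vehicle and injection.

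Among the other genes of gluconeogenesis (11 listed, 10 tested; Fbp2 was too low), GAL lowered 8 and raised 0 (median log2 fold change -1.87, against 0.08 over all genes tested) and CCl4 lowered 8 and raised 1 (-1.06, against 0.10). Got1, the cytosolic aspartate aminotransferase, fell from 214 to 26.6 CPM with GAL (-3.08 ± 0.25, adjusted p = 0.00155), and Slc37a4, which carries glucose 6-phosphate to G6pc, from 97.9 to 15.1 (-2.78 ± 0.56, adjusted p = 0.0136). TAA lowered 6 and raised 1 (-0.70, against 0.03), APAP lowered 4 and raised 1 (-0.31, against 0.07), ConA lowered 4 and raised 1 (-0.62, against 0.03), and MDA lowered 2 and raised 2 (0.05, against 0.03). The called shares of the 10 were 90% for CCl4, 80% for GAL, 70% for TAA, 50% for APAP, ConA and ANIT, and 40% for MDA, against 33.6%, 28.7%, 50.3%, 31.8%, 34.2%, 28.1% and 33.7% of all genes in the same order. The gene raised by ConA was pyruvate carboxylase Pcx, from 273 to 566 CPM (1.07 ± 0.28, adjusted p = 0.0141).

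ANIT raised 5 of these 10 genes and lowered 0 (median 0.38, against -0.01 over all genes). They include Slc37a4, from 119 to 233 CPM (0.96 ± 0.11, adjusted p = 8.28e-06) and Pcx (0.78 ± 0.18, adjusted p = 0.00284), beside the fall of G6pc. Restricted to mice numbered 1 to 4, 1 of the 10 passed with each of ANIT, MDA and TAA, and restricted to mice above 4, 1 passed with ConA. With the replicate number as a block, 1 of the 10 passed with ANIT and 2 with APAP. Slc37a4 changed with all 7 compounds, higher in ANIT and MDA and lower in the other 5. Single mice moved some counts: the GAL count was 4 without CIP mouse 8, the ConA count of 5 was 2 without CIV mouse 7 and 3 without CIV mouse 8, and the MDA count of 4 was 2 without MDA mouse 3 or 12, and 2 without the filter on low genes.

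Of 25 other genes of glycolysis and lactate transport, TAA raised 13 and lowered 6 of 25 tested (median 0.39, against 0.03) and ConA raised 11 and lowered 6 (0.69, against 0.03). Pfkfb3, which makes the activator of phosphofructokinase, rose from 4.62 to 173 CPM with ConA (5.22 ± 0.48, adjusted p = 3.96e-05), and lactate dehydrogenase Ldha from 521 to 2416 (2.22 ± 0.28, adjusted p = 0.000195). With TAA the lactate exporter Slc16a3 rose from 0.608 to 28.1 CPM (5.44 ± 0.58, adjusted p = 3.43e-07). GAL went the other way, with 1 higher and 12 lower (-0.83, against 0.08); Ldha fell from 518 to 131 CPM (-2.06 ± 0.26, adjusted p = 0.00316) and Gapdh from 2343 to 945 (-1.38 ± 0.18, adjusted p = 0.00349).

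APAP raised 7 and lowered 5 of 24 tested glycolysis genes (-0.19, against 0.07), CCl4 raised 3 and lowered 6 (-0.17, against 0.10), ANIT raised 3 and lowered 10 (-0.31, against -0.01), and MDA raised 2 and lowered 8 of 23 (-0.23, against 0.03). For CCl4 the 37.5% called is near the 33.6% of all genes and is no result about glycolysis genes. The called shares were 43.5% for MDA (33.7% of all genes), 50% for APAP (31.8%), 54.2% for ANIT (28.1%), 52% for GAL (28.7%), 68% for ConA (34.2%) and 76% for TAA (50.3%). Pklr, the liver pyruvate kinase, fell with all 7 compounds, by -3.24 (GAL) to -1.34 (CCl4) on the log2 scale, as did Pfkfb1 and Pfkm. With only the mice numbered 1 to 4, 6 glycolysis genes passed for APAP, 6 for ANIT, 4 for MDA and 11 for TAA. The ConA count of 17 was 11 without CIV mouse 7, and the GAL count of 13 was 7 without either CIP mouse and 8 without GAL mouse 8.

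Of 12 tested glycogen genes, ConA lowered 7 and raised 2 (median -1.17, against 0.03), GAL lowered 6 (-1.31, against 0.08), TAA lowered 5 and raised 1 (-0.59, against 0.03), CCl4 and MDA lowered 5 and raised 1 each (-0.35, against 0.10, and -0.14, against 0.03), and APAP and ANIT lowered 4 each (-0.41, against 0.07, and -0.04, against -0.01). The called share was near that of all genes for APAP (33.3%, against 31.8%), ANIT (33.3%, against 28.1%) and TAA (50%, against 50.3%), so these 3 counts say nothing particular about glycogen genes. It was 75% for ConA (34.2% of all genes) and 50% for GAL, CCl4 and MDA (28.7%, 33.6% and 33.7%). Pygl, the liver glycogen phosphorylase, fell with all 7 compounds and no treated mouse overlapped its vehicle, from -3.16 ± 0.28 with GAL (adjusted p = 0.00167) to -1.11 ± 0.18 with ANIT (adjusted p = 0.0002). Ppp1r3b, a relative of Ppp1r3c, fell with 6, to 7.90 from 87.3 CPM with TAA (-3.43 ± 0.24, adjusted p = 9.47e-10). The muscle-type glycogen synthase Gys1 rose with ConA (2.20 ± 0.48, adjusted p = 0.00525) and TAA (1.72 ± 0.33, adjusted p = 0.000227) while the liver form Gys2 fell with both (-1.32 ± 0.29, adjusted p = 0.00564, and -1.06 ± 0.17, adjusted p = 3.06e-05). In the mice numbered 1 to 4, 1 glycogen gene passed for APAP, 1 for MDA, 2 for ANIT and 3 for TAA. The ConA count of 9 was 4 without CIV mouse 8 and 4 among genes of at least 5 CPM, and the ANIT count was 2 without ANIT mouse 2 or 3.

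Of 20 regulators, TAA raised 8 and lowered 10 (median -0.18, against 0.03), ConA raised 8 and lowered 5 (0.58, against 0.03), GAL raised 1 and lowered 10 (-0.73, against 0.08) and CCl4 raised 1 and lowered 9 (-0.62, against 0.10). ANIT raised 7 and lowered 4 (0.01, against -0.01), MDA raised 5 and lowered 6 (0.07, against 0.03), and APAP raised 3 and lowered 7 (0.01, against 0.07). The called shares were 90% for TAA (50.3% of all genes), 65% for ConA (34.2%), 55% for GAL (28.7%), ANIT (28.1%) and MDA (33.7%), and 50% for CCl4 (33.6%) and APAP (31.8%). Myc, which encodes a growth factor-responsive activator of glycolytic genes, rose with all 7 compounds, from 1.85 ± 0.41 in ANIT (adjusted p = 0.00272) to 5.74 ± 0.50 in ConA (adjusted p = 2.94e-05). Mlxipl, which encodes the glucose-sensing activator of Pklr, and Klf15, a factor of fasting gluconeogenesis, fell with all 7.

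Hif1a, the hypoxia-inducible factor gene, rose with 5 compounds, from 5.42 to 53.0 CPM with ConA (3.29 ± 0.56, adjusted p = 0.00122) and from 4.27 to 17.7 with TAA (2.09 ± 0.19, adjusted p = 2.16e-08). The glucagon receptor gene Gcgr fell with 5 compounds, with GAL from 176 to 43.3 CPM (-2.10 ± 0.28, adjusted p = 0.00385). Igfbp1, an insulin-repressed gene of fasting, rose with ConA (2.85 ± 0.51, adjusted p = 0.0018) and fell with GAL (-2.86 ± 0.38, adjusted p = 0.00379). Taking only mice numbered 1 to 4, 2 regulators passed for APAP, 1 for MDA and 7 for ANIT. The GAL count of 11 was 5 without CIP mouse 7, and the ANIT count of 11 was 7 without ANIT mouse 3, 7 with the number range as a covariate and 6 with library totals. The MDA count of 11 was 7 among mice numbered above 4.

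The genes whose 10 group means of log2(CPM + 1) were most like each of the 9, by root mean square (RMS) difference after centring, were sought among 12232 genes. The nearest to Slc2a2 was Akr1d1, a bile acid-synthesis reductase (RMS 0.25), followed by Aldh8a1 (0.32). The nearest to Pck1 were Hal and Tdo2, which degrade histidine and tryptophan (0.46 and 0.49), and to G6pc Ido2 and Hsd3b3 (0.82 and 0.85). Fbp1 was nearest to Slc17a2 and Cldn2 (0.30 and 0.34), and Ppp1r3c to Cd300lg and Gm7463 (0.33 and 0.38).

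Of the rising genes, Hk2 was nearest to Spry2 and the leukocyte chemokine receptor Ccr7 (0.15 and 0.16), and Pkm to the proteoglycan of leukocyte granules Srgn and to Emp1 (0.35 and 0.36). Slc2a1 was nearest to Csrnp1 and Gm17024 (0.34 and 0.36), and Pfkp to Gm37689 and Fam84a (0.26 and 0.28). These distances cover 10 group means of the same mice. The group means of G6pc span 6.27 on this scale and those of Hk2 2.78. Because log2(CPM + 1) compresses low genes, RMS values of different members are not compared.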

How the data were processed

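Bulk liver RNA-seq of 57 mice was used. Per the submitters' processing notes, reads were quantified with Salmon 1.6.0 and R 4.1.3 on GRCm39; how transcripts were summed to genes is not given in the sources used here. The values the authors deposited are estimated counts per Ensembl gene, made by that quantification, and are not whole numbers. Across 4208 genes with 1 transcript, longer transcripts had smaller lowest nonzero values (rho -0.944 by Spearman, over genes and not replicates). The slope of log2 value on log2 length was -1.70, steeper than division by length alone would give. The values are read as per length but were not shown to be exactly so. Symbols matched 51482 of 54307 identifiers.

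Counts were rounded. Each compound was compared with its route vehicle, and with all 17 vehicle mice, in a fit of those groups only: edgeR 4.0.16 in R 4.3.3, filterByExpr, TMM, robust quasi-likelihood test, two-sided, Benjamini-Hochberg over all genes tested, threshold 0.05. SE is the log2 fold change divided by the root of F. Levels are TMM-scaled CPM over all mice. Compounds were compared with one another in a fit of all 10 groups, adjusted within each pair over all genes. The fit was tested on simulated data with known answers; with 2 saline mice few 2-fold and only part of the 4-fold differences were recovered. In GAL against CIP, a first simulation recovered hardly any 4-fold difference, after which the criterion for passing was changed to the largest simulated difference, the signs, the bias and the null p-values. A missed call against CIP or CIV therefore says little about changes of up to 4-fold. Nothing beyond the labels says how mice were housed or processed, so p-values measure the spread between these samples.

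Alternatives were library totals, DESeq2 1.42.0, no filter, a mean of at least 5 CPM, the replicate number as a block, a covariate that splits replicate numbers at 4, each side of that split alone, and leaving out 1 treated or saline mouse (86 fits). The text names all 9 genes, the 2 genes nearest to each whose group means span at least 2 on the log2 scale, and up to 4 genes per list and comparison. The members and lists were chosen with earlier results of these data known. Some genes of the lists are counted but not reported by name here, and a gene pair that needs one of them was left out.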

Additional observations from a re-analysis of the deposited data

Results flagged for a closer look

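In 9 of the 63 groups of 4 to 10 mice checked (9 genes, 7 compounds), 1 mouse stood apart from the rest by Dixon's gap criterion, which chance alone meets in about 1 in 20 groups. G6pc was 184 CPM in CCl4 mouse 8 (the others 47.2 to 106) and 29.1 in TAA mouse 3 (the others 3.99 to 9.41). Pck1 was 89.9 CPM in GAL mouse 2 (the others 27.5 to 38.1), and Slc2a2 was 24.2 in the same mouse (the others 7.46 to 9.50). Fbp1 was 655 CPM in APAP mouse 1 (the others 282 to 410), 1233 in MDA mouse 1 (the others 221 to 427) and 680 in TAA mouse 1 (the others 247 to 335). Pfkp was 1.90 CPM in GAL mouse 8 (the others 2.58 to 2.64), and Hk2 was 9.80 in TAA mouse 7 (the others 2.63 to 3.85).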

How the results depend on the processing

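The number of the 9 genes called stayed within 1.5 times its reported value in most alternatives. ANIT against Ctrl went from 2 to 1 under the replicate block, the number-range covariate and mice numbered 1 to 4 only, and ran from 1 to 3 when 1 mouse was left out; ANIT against all vehicles likewise went to 1 under those 3 settings. APAP against Ctrl went from 8 to 2 under the replicate block and with mice numbered 1 to 4 only, and APAP against all vehicles from 7 to 2 with mice numbered 1 to 4 only. GAL against CIP ran from 3 to 5 when 1 mouse was left out, with 3 without either CIP mouse. The compound pairs gave 122 to 133 calls in all alternatives. The cause of these changes was not tested; the settings limited by number use fewer mice.

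Fbp1 in ConA against all vehicles reversed with library totals (-0.44, adjusted p = 0.00102; 0.18 as reported, not called). Another 50 single-gene values changed sign without passing in either fit. Library totals moved the median of all genes by -0.22 (ANIT), 0.16 (APAP), 0.43 (CCl4), 0.76 (GAL) and -0.59 (ConA). The split of higher and lower calls went from 1969 and 1980 to 816 and 2616 in ANIT, from 2401 and 2027 to 2923 and 1114 in APAP, from 2764 and 2393 to 4586 and 1105 in CCl4, from 2001 and 2456 to 5523 and 861 in GAL, and from 2392 and 2439 to 1091 and 3794 in ConA. Against all vehicles it went from 1942 and 2090 to 840 and 2932 in ANIT, from 2571 and 2183 to 3018 and 1265 in APAP, from 3718 and 3854 to 7131 and 1732 in CCl4, from 3820 and 4177 to 8312 and 1742 in GAL, and from 4730 and 4657 to 2337 and 7006 in ConA.

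Counts over all genes ran from 1104 to 4304 for ANIT (3949 reported; 2542 without ANIT mouse 3), 258 to 4704 for APAP (4428), 1301 to 4832 for MDA (4555), 2766 to 8732 for TAA (7225), 3037 to 5735 for CCl4 (5157; the lowest without CIP mouse 8), 1653 to 6556 for GAL (4457; 2667 without GAL mouse 4, 2560 without GAL mouse 8, 1929 without CIP mouse 7 and 1653 without CIP mouse 8) and 3012 to 5536 for ConA (4831). Against all vehicles they ran from 1515 to 4428 for ANIT (4032 reported; 2620 without ANIT mouse 3), 860 to 5392 for APAP (4754), 1301 to 5138 for MDA (4737), 2766 to 9003 for TAA (7299), 4927 to 8863 for CCl4 (7572), 4506 to 10054 for GAL (7997) and 5615 to 12205 for ConA (9387).

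Pairing by equal replicate numbers was not assumed. With 4 to 7 shared numbers, the correlation of deviations ran from -0.15 to 0.28 and was not over 0.1 in every pair of any comparison. In TAA it ran from 0.0077 to 0.28 (mean 0.14). Such correlations cannot decide whether mice of equal number share a batch. The replicate block left 1104 genes called for ANIT and 258 for APAP. Under it edgeR called 0 of the APAP glycolysis genes (11 at an unadjusted p under 0.05) and 0 of the regulators (8). For APAP it called 2 gluconeogenesis genes (4) and 1 glycogen gene (3). For ANIT it called 1 gluconeogenesis gene (5), 3 glycolysis genes and 2 regulators. G6pc in GAL against CIP did not pass under the block (-6.32, adjusted p = 0.0639). No paired analysis was possible for CCl4 against CIP and ConA against CIV because each shares 1 number. With 2 saline mice, even 4-fold differences can be missed, above all in GAL against CIP. Leaving out a CIP or CIV mouse leaves 1 control, which is assumed to vary like the treated mice.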
